A study of Mus musculus with 35 samples.

Results

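The 10 genes described here are markers and regulators of primitive endoderm: Gata4, Gata6, Sox7, Sox17, Foxa2, Hnf4a, Dab2, Lama1, Ttr and Cubn. They were taken as a named list, matched by Ensembl identifier among the 54752 genes of each library. They were followed by RNA sequencing in 35 libraries of mouse embryonic fibroblasts (MEFs) during reprogramming. The MEFs came from embryonic day 13.5 at passage 2, from males with an Oct4-GFP transgenic allele (CBA/CaJ × C57BL/6J) mated to 129 females. The labels give 34 female strain names for the 35 libraries, numbered upward from 129S12/SvJaeJ to 129S46/SvJaeJ, so the substrain used cannot be read from them. In the full arm the fibroblasts received retroviruses for Jdp2, Esrrb, Glis1 and Sall4, abbreviated JEGS, and each of 4 other arms left out 1 of these factors. All arms were infected for 48 hours and then moved to iCD3 medium with Rock inhibitor. The leave-out arms were sampled on each day from 0 to 7, giving 8 libraries per arm, and JEGS on days 2, 4 and 6. Each arm and day has 1 library, so no library has a replicate of the same arm and day. The leave-out arms address what each factor adds to the cocktail.

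Primitive endoderm is the epithelium that forms beside the epiblast in the late blastocyst and gives rise to the visceral and parietal endoderm of the yolk sac. Gata6 acts early in this choice, opposed to Nanog in the epiblast, and Sox17, Gata4 and Sox7 follow. The same cells later take up maternal nutrients through endocytic receptors and lay down a thick basement membrane. Several of the genes are also used by heart, endothelium, kidney, liver or choroid plexus, and fibroblasts themselves can express Gata4, Gata6 and Dab2.

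The 35 libraries held between 1266379 and 3608456 expected counts each, the median being 1973102. Each delivered factor was low in the arm that left it out and high elsewhere. In CPM, counts divided by the TMM-scaled library size, Jdp2 lay between 10.4 and 45.4 without Jdp2 and at 257 or more in every other library. Sall4 was at 0.584 to 11.2 CPM without Sall4, Esrrb at 7.05 to 57.9 CPM without Esrrb and Glis1 at 0 to 4.43 CPM without Glis1, with retroviral and endogenous transcripts counted together. Arms that received the same factor also differed in its level. Mean Esrrb was 6226 CPM without Glis1 and 6652 without Sall4, but 1807 without Jdp2 and 1788 in JEGS (days 2, 4 and 6). Mean Sall4 was 4281 CPM without Glis1 and 3575 without Esrrb, but 2040 without Jdp2 and 2113 in JEGS. The part of these differences in the results was not tested. Fibroblast markers (8 genes) summed to between 2439 and 4512 TPM, a length-scaled share of transcripts, on day 0 of the leave-out arms and to between 393 and 640 TPM on day 7. These levels go with the sample titles and against a treatment label that gives all 4 factors and 72 hours to every sample. A pair of library kits is named in the labels without assignment to libraries, so kit and arm cannot be told apart. Because the libraries are bulk samples, a change in the number of expressing cells and a change in RNA per cell cannot be told apart either.

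The GATA factors followed different courses. Gata6 (ENSMUSG00000005836, chr18:11052064-11085635, plus strand; all gene positions are GRCm38), which starts the primitive endoderm programme, was present on day 0 in every leave-out arm. Without Jdp2 it was at 16.1, 11.3, 21.3, 23.3, 35.9, 36.2, 40.7 and 34.9 CPM on days 0 to 7. It was lowest without Esrrb, with a range of 5.06 to 19.4 CPM, against 19.0 to 36.1 CPM without Glis1 and 17.9 to 31.0 CPM without Sall4. Gata4 (ENSMUSG00000021944, chr14:63198922-63271692, minus strand), its partner in visceral endoderm, was at 5.17, 4.31, 2.72 and 1.53 CPM on days 0 to 3 without Jdp2, then at 7.77, 19.5, 41.4 and 74.6 CPM on days 4 to 7. No other arm had a Gata4 value above 13.8 CPM. Without Glis1 it stayed between 7.80 and 13.8 CPM on all 8 days. Without Esrrb it was at 5.92 CPM on day 1 and at 0.588 CPM on day 7, which is 1 count, and without Sall4 it ended at 0.350 CPM.

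The SOX factors Sox17 (ENSMUSG00000025902, chr1:4490931-4497354, minus strand) and Sox7 (ENSMUSG00000063060, chr14:63943673-63950732, plus strand) are HMG box proteins of the same subgroup. Without Jdp2, Sox17 was at 0.574, 0 and 0.453 CPM on days 0, 1 and 2 and then at 3.68, 16.8, 21.3, 45.9 and 75.1 CPM on days 3 to 7. It reached 23.8 CPM without Glis1 and 8.81 CPM without Esrrb, both on day 7. No Sox17 count was found in any of the 8 libraries without Sall4. Sox7 was highest on day 7 without Esrrb, at 51.1 CPM, and without Jdp2, at 41.6 CPM. In the other leave-out arms it never passed 4.19 CPM, and without Sall4 its top of 3.15 CPM was also on day 7. The arm without Esrrb thus ended with the highest Sox7 and with Gata4 at 1 count, whereas the arm without Jdp2 ended with both high.

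**Figure D1:**
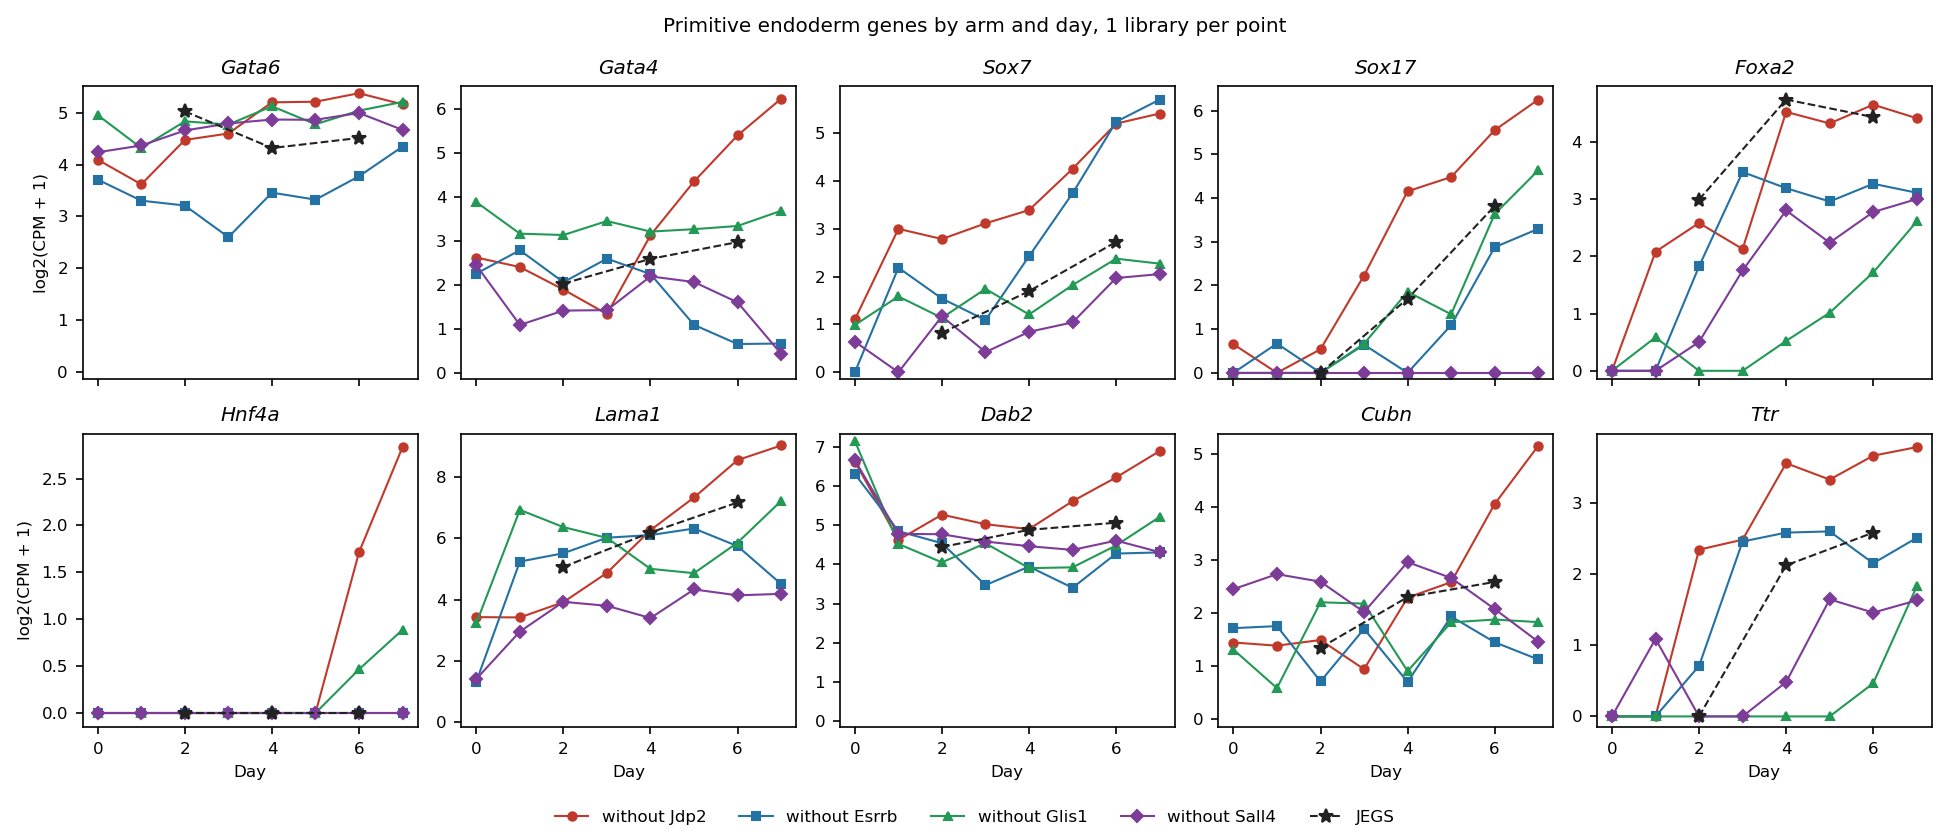
Level of each gene by day, as log2(CPM + 1) with CPM scaled by TMM, 1 panel per gene and 1 library per point. Lines join the days of an arm, and dashed lines with stars are JEGS on days 2, 4 and 6. Sox17 without Jdp2 ends at 75.1 CPM and without Sall4 lies at 0 throughout, and Dab2 is lower on day 1 than on day 0 in all 4 leave-out arms.

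Foxa2 (ENSMUSG00000037025, chr2:148042877-148046969, minus strand), a forkhead factor of visceral and later definitive endoderm, was at 0 on day 0 in all 4 leave-out arms. Without Jdp2 it was at 3.23, 4.99 and 3.37 CPM on days 1 to 3 and between 19.0 and 24.1 CPM on days 4 to 7. On days 5 to 7 its mean was 21.1 ± 2.64 CPM without Jdp2 (SD, n = 3 days), 7.68 ± 0.933 without Esrrb, 5.52 ± 1.66 without Sall4 and 2.80 ± 2.09 without Glis1. JEGS had 6.95, 25.7 and 20.6 CPM on days 2, 4 and 6. Hnf4a (ENSMUSG00000017950, chr2:163506808-163572910, plus strand), the nuclear receptor that drives serum protein genes in visceral endoderm and liver, had 23 counts in the whole series. Of these, 7 and 13 counts fell on days 6 and 7 without Jdp2, and 1 and 2 counts on the same days without Glis1. All other libraries had none. Over the 8 days the arm without Jdp2 was at least 6.95-fold higher than the arm without Sall4 and at least 4.68-fold higher than the arm without Esrrb, with both of those set to 3 counts over the arm. Hnf4a did not reach 1 CPM in 3 libraries, so it was not among the genes tested.

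Foxa2, Hnf4a and Cubn all had their highest leave-out level on day 6 or 7 without Jdp2, so the sequence before their start sites is shown. RefSeq promoter windows (GRCm38.p6) were examined for 4 of the 10 genes, Foxa2, Hnf4a, Dab2 and Cubn, in 8 windows. The other genes of the list were not examined. Both strands were searched for letters known for factors of the cocktail or of endoderm. AGATAA stands for GATA factors and ACAAT for the SOX core. AAGGTCA stands for Esrrb and AATATT for AT-rich sequence bound by Sall4. The AP-1 motif is TGANTCA and the cyclic AMP response element is TGACGTCA, both of which Jdp2 dimers bind. CAAAGTCCA stands for HNF4 factors, and for forkhead factors the letters are TGTTTAC. The stretches with a match before the start site are shown with the matches in capitals.
Foxa2, at the third start site, chr2:148045465-148045714, minus strand: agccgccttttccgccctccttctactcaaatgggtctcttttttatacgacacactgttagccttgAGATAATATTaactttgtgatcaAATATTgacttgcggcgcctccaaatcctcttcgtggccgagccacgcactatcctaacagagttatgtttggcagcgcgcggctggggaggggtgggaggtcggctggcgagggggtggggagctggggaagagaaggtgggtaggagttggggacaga
Hnf4a, at the first start site, chr2:163506607-163506810, plus strand: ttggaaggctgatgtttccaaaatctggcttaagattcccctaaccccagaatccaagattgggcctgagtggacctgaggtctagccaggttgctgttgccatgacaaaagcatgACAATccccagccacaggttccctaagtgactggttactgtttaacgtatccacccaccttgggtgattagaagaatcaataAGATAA
Cubn, chr2:13491877-13492126, minus strand: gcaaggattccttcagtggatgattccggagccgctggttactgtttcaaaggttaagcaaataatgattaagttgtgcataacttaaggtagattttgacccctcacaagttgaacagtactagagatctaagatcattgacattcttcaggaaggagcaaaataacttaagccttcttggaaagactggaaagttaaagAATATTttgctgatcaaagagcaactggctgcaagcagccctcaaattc
In the Foxa2 stretch, AGATAA begins 183 bases before the start site and overlaps the first of 2 AATATT matches, and in the Hnf4a stretch ACAAT begins 134 and AGATAA 52 bases before it. Dab2 has a GATA match 14 bases past its first start site. Across 32851 windows of the table, 11.2% hold AGATAA, 31% ACAAT and 6.81% AATATT, so such matches are common. None of the 8 windows held the AP-1, cyclic AMP, Esrrb, HNF4 or forkhead letters, which stand in 7.81%, 1.79%, 4.72%, 0.475% and 3.65% of windows.

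Lama1 (ENSMUSG00000032796, chr17:67697259-67822647, plus strand) encodes the alpha chain of laminin-111, the laminin of the early embryo's basement membranes. Without Jdp2 it was at 9.77 and 9.69 CPM on days 0 and 1, at 75.6 CPM on day 4 and at 159, 371 and 516 CPM on days 5 to 7. The arms without Glis1 and without Esrrb were higher already on day 1, from 8.38 to 120 CPM and from 1.52 to 36.7 CPM between day 0 and day 1. The arm without Esrrb peaked at 78.4 CPM on day 5 and was at 21.7 CPM on day 7. The arm without Glis1 was at 28.0 CPM on day 5 and at 147 CPM on day 7. Without Sall4 no library passed 19.1 CPM.

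Dab2 (ENSMUSG00000022150, chr15:6299788-6440712, plus strand) is a cargo adaptor of clathrin-coated pits that primitive endoderm needs for its position and for uptake. It was already high in the day 0 fibroblasts, at 78.2 to 141 CPM in the 4 leave-out arms, and at 22.0 to 27.8 CPM on day 1. Of these arms only the one without Jdp2 was near the day 0 level again, with 48.0, 73.6 and 118 CPM on days 5, 6 and 7, while the other 3 arms stayed at or under 36.1 CPM on those days. Cubn (ENSMUSG00000026726, chr2:13276338-13491813, minus strand) encodes cubilin, the receptor for vitamin B12 bound to intrinsic factor and for apolipoprotein A-I. It was between 0.919 and 4.98 CPM on days 0 to 5 without Jdp2, then at 15.6 and 34.5 CPM, and no other arm passed 6.77 CPM. Ttr (ENSMUSG00000061808, chr18:20665280-20674321, plus strand), the secreted thyroxine carrier transthyretin, first had counts on day 2 without Jdp2 and was at 9.06 to 12.8 CPM on days 4 to 7. It was at 3.45 to 5.07 CPM on days 3 to 7 without Esrrb, and without Glis1 it had 1 count on day 6 and 6 on day 7.

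As averages over the 8 days, most tested primitive endoderm genes were higher without Jdp2 than in each of the other leave-out arms. This held for 7 of 9 tested genes against the arm without Sall4, 6 of 9 against the arm without Glis1 and 5 of 9 against the arm without Esrrb. None was lower. Among all 18135 genes tested the shares called higher were 18.2%, 17.9% and 13.5% in the same order, and those called lower were 17%, 17.3% and 8.56%. The median log2 difference of the 9 genes was 2.73, 1.50 and 1.36, beside 0.01, 0 and 0 over all genes. Sox17 was the largest of the 9 values against the arm without Sall4 also at its lower bound, so that median could not change. The 3 comparisons share the libraries without Jdp2 and are not independent of each other. The tests were edgeR quasi-likelihood fits with day as a factor, so a p-value measures the spread of the arm difference over days and not that between cultures.

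Against the arm without Sall4, Sox17 was at least 139-fold higher, from 400 counts against none with a floor of 3 counts over the arm. Sox7 differed by 3.60 ± 0.41 (log2 ± SE, edgeR adjusted p = 1.2e-07) and was higher without Jdp2 on 8 of 8 days. Lama1 differed by 3.13 ± 0.58, Ttr by 2.84 ± 0.62, Gata4 by 2.73 ± 0.63, Foxa2 by 2.00 ± 0.43 and Dab2 by 0.96 ± 0.25. Their edgeR adjusted p-values lay between 1.1e-04 for Lama1 and 0.003 for Dab2. Sox17, Lama1, Gata4 and Foxa2 were higher on 7 of 8 days, and Ttr and Dab2 on 6. Gata6 differed by 0.09 ± 0.17 and Cubn by 0.36 ± 0.55, and neither passed. No call was lost on leaving out any 1 library. Without the day term Foxa2 (1.88) and Dab2 (0.85) no longer passed, at edgeR adjusted p = 0.052 and 0.19 where the range over all alternatives began at 1.8e-05 and 7.4e-05.

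Against the arm without Glis1, Ttr was higher without Jdp2 by 4.07 ± 0.71 (log2 ± SE, edgeR adjusted p = 5.8e-05), Foxa2 by 3.37 ± 0.50, Sox7 by 2.62 ± 0.39, Sox17 by 2.33 ± 0.38, Cubn by 1.50 ± 0.57 and Dab2 by 1.02 ± 0.25. Of these, Sox7 was higher on 8 of 8 days, Foxa2, Sox17 and Dab2 on 7, and Ttr and Cubn on 6. Gata4 (0.62), Gata6 (-0.10) and Lama1 (0.62) did not pass. The Cubn call (edgeR adjusted p = 0.043) was lost on leaving out day 0, 1, 4, 5, 6 or 7 without Glis1 or day 6 or 7 without Jdp2, with log2 differences of 0.71 to 1.50 and edgeR adjusted p of 0.054 to 0.3. Sox17 (1.98) and Dab2 (0.69) did not pass without the day term and Cubn (1.41) did not pass in DESeq2, while Lama1 passed over days 3 to 7, at 1.66. Sox17 also lost its call in limma with the smaller pseudocount, at 2.27.

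Against the arm without Esrrb, Sox17 was higher without Jdp2 by 3.37 ± 0.44 (log2 ± SE, edgeR adjusted p = 6.1e-06), Gata4 by 2.22 ± 0.64, Cubn by 1.77 ± 0.61, Dab2 by 1.38 ± 0.26 and Gata6 by 1.36 ± 0.19. Gata6 was higher on 8 of 8 days, Sox17 and Dab2 on 7, and Gata4 and Cubn on 5. On days 1 to 3 Gata4 was lower, at 4.31, 2.72 and 1.53 CPM against 5.92, 3.18 and 5.06 CPM without Esrrb. Sox7 (0.60), Foxa2 (1.07), Lama1 (1.12) and Ttr (1.15) did not pass. Gata4 lost its call without day 6 (1.76) or day 7 (1.55) of the arm without Jdp2. Cubn lost its call without day 2, 4, 6 or 7 of the arm without Esrrb or day 6 or 7 of the arm without Jdp2, at 1.02 to 1.66. Foxa2 passed without day 3 of either arm, at 1.34 and 1.46, Lama1 passed over days 3 to 7, at 1.56, and Dab2 (1.22) did not pass without the day term.

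**Figure D2:**
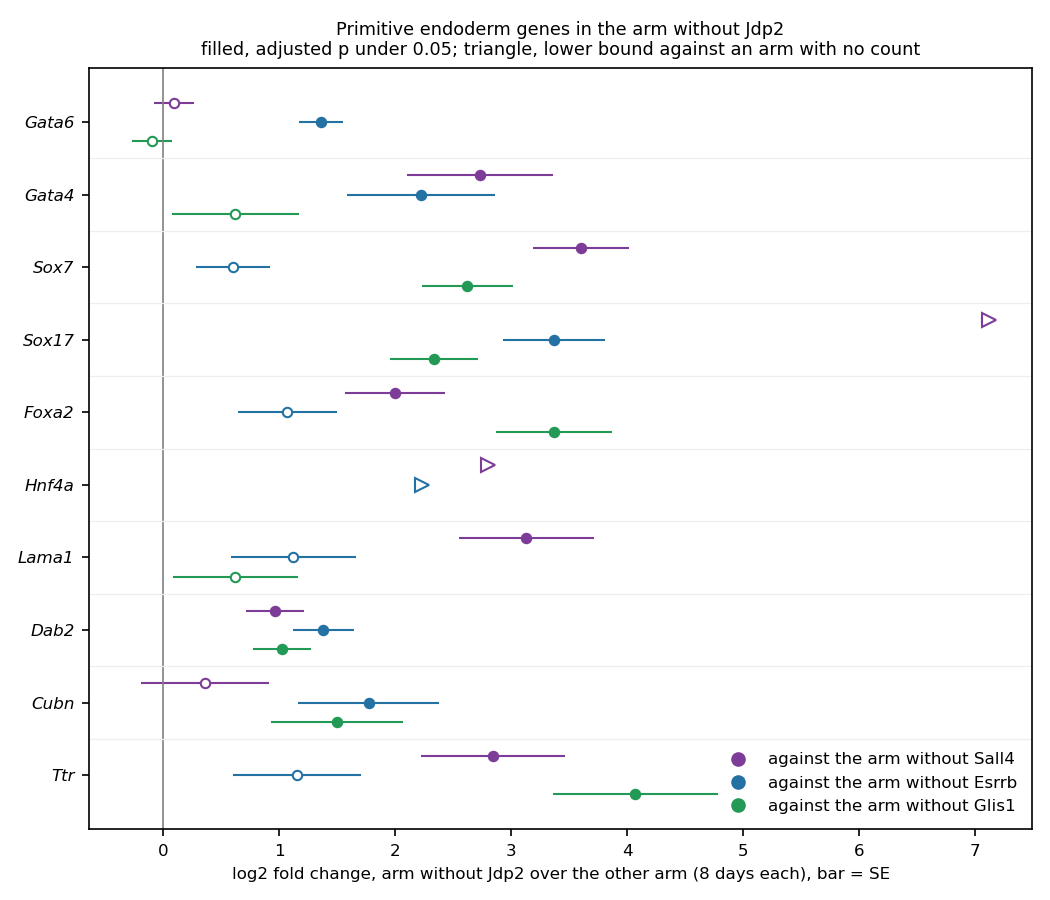
Log2 fold change of each gene in the arm without Jdp2 over each of the other 3 leave-out arms, over 8 days, with bars for the SE. Filled points passed an adjusted p under 0.05 and triangles are lower bounds against an arm with no count. Only Sox17 and Dab2 were called higher in all 3 comparisons, while Gata6 lies near 0 against 2 arms and at 1.36 against the arm without Esrrb.

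The remaining pairs of leave-out arms differed gene by gene. Without Esrrb, 4 of 9 genes were higher than without Sall4 (22.2% of all genes tested): Sox17 (at least 14.9-fold), Sox7 (3.01), Lama1 (2.02) and Ttr (1.68). Gata6 was lower, by -1.26 with 24.8% of all genes called lower. The Ttr call (edgeR adjusted p = 0.037) was lost without day 3, 4 or 5 of the arm without Esrrb or day 2, 3, 4 or 7 of the arm without Sall4, at 1.39 to 1.64. Ttr also lost its call without the day term (1.57) and with thinned counts (1.46). Cubn (-1.41) passed as lower without day 1 of the arm without Esrrb, day 3 or 7 of the arm without Jdp2, or day 6 or 7 of the arm without Sall4, at -1.70 to -1.33. Without Glis1, 3 of 9 genes were higher than without Sall4 (16.2% of all genes): Sox17 (at least 37.7-fold), Lama1 (2.51) and Gata4 (2.11). Gata4 was higher on 8 of 8 days there, and the ranges of these arms did not overlap. Its call was lost in limma with the larger pseudocount, at 1.27. None was lower (15.9% of all genes), and Foxa2 missed the threshold at -1.37. Foxa2 passed, at -2.03 to -1.36, on leaving out day 0, 1, 3, 6 or 7 without Esrrb, day 0, 1 or 7 without Glis1, day 0, 1, 3 or 7 without Jdp2, or day 0, 1 or 2 without Sall4. Ttr passed as lower, at -2.79, without day 7 of the arm without Glis1.

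Between the arms without Esrrb and without Glis1 the genes split. Ttr (2.92), Foxa2 (2.30) and Sox7 (2.02) were higher without Esrrb, where 20.4% of all genes were called higher. Gata4 (-1.59) and Gata6 (-1.46) were lower, where 22.8% of all genes were called lower. Gata6 had edgeR adjusted p = 3.4e-07, and Gata4 had 0.043 with a call lost on leaving out day 0, 4, 5, 6 or 7 without Esrrb or any of days 0 to 5 without Glis1, at -1.66 to -1.26. Gata4 was lower on 8 of 8 days and the ranges did not overlap. Foxa2 lost its call without the day term (2.08) and Sox7 in limma with the smaller pseudocount (1.23). Sox17 passed as lower, at -1.14, without day 1 of the arm without Esrrb. Of this pair of arms, the one with lower Foxa2 and Ttr had higher Gata4 and Gata6.

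JEGS was compared with each leave-out arm on its 3 shared days, in a fit of 15 libraries and 16603 genes. Sox7 was at 0.772, 2.24 and 5.62 CPM in JEGS on days 2, 4 and 6 and at 5.90, 9.50 and 35.8 CPM without Jdp2, and the ranges did not overlap. Sox17 was at 0, 2.24 and 13.1 CPM in JEGS and at 0.453, 16.8 and 45.9 CPM without Jdp2. Sox7 (-2.49, edgeR adjusted p = 0.015) and Sox17 (-2.26, edgeR adjusted p = 0.042) were the 2 of 9 genes lower in JEGS, where 2% of all genes were called lower. None was higher (0.819% of all genes). The median of the 9 genes was -0.83, beside 0.02 over all genes. Lama1 had 32.4, 71.6 and 142 CPM in JEGS and did not pass (-0.60). The Sox7 call was lost without JEGS day 6 or day 4 or 6 of the arm without Jdp2, at -2.54 to -2.18. The Sox17 call was lost without any 1 of the 6 libraries compared or without day 4 or 6 of the arm without Glis1, at -2.89 to -1.79. Both calls were also lost in limma with either pseudocount (Sox7 at -1.75 and -2.45, Sox17 at -1.43 and -2.14) and without the day term (-2.51 and -1.99), and Sox17 in DESeq2 (-2.18) and with thinned counts (-2.03). With no filter on low counts Gata4 passed as lower as well (-1.56).

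Foxa2 was higher in JEGS by 4.21 (edgeR adjusted p = 7.2e-05) than without Glis1 and by 2.25 (edgeR adjusted p = 0.0015) than without Sall4, on 3 of 3 days and with no overlap in either case. Ttr was also higher than without Glis1, by 3.85, which made 2 of 9 genes higher (9.86% of all genes) and none lower (10%). The Ttr call was lost without day 4 or 6 of either arm, at 3.28 to 5.22, and also in limma with the smaller pseudocount (3.10), with thinned counts (2.62) and without the day term (3.83). Sox17 (at least 14.8-fold) and Lama1 (2.52) were higher than without Sall4 beside Foxa2, so 3 of 9 genes (11.9% of all genes called higher and 11.9% lower, the latter with none of the 9). The Lama1 call was lost without day 4 or 6 of either arm, at 2.16 to 2.40, and the Sox17 call without day 6 of the arm without Sall4. Both were lost in limma with either pseudocount, and Sox17 and Foxa2 (2.13) without the day term. Against the arm without Esrrb, Gata6 was higher (1.24) and Sox7 lower (-1.95), 1 of 9 genes each way, with 4.04% and 2.6% of all genes. Gata6 lost its call without JEGS day 2 or day 2 or 4 of the arm without Esrrb, at 0.84 to 1.20. Sox7 lost its call without any JEGS day, day 6 without Esrrb, or day 4 or 6 without Jdp2, at -2.23 to -1.02. Under limma both calls were lost (Gata6 at 0.80 and 0.88, Sox7 at -1.17 and -1.64), and Sox7 also in DESeq2 (-1.92) and without the day term (-2.26). Foxa2 (1.49) did not pass, and passed without the filter on low counts (1.48) and without day 2 or 6 of the arm without Glis1 or day 2 of the arm without Sall4.

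Without Jdp2, 8 of 9 genes rose with day, where 5.19% of all genes rose, and none fell, where 4.49% fell. The slopes were 1.17 ± 0.12 log2 per day for Sox17, 0.96 ± 0.13 for Lama1, 0.73 ± 0.11 for Cubn and 0.69 ± 0.10 for Gata4. Foxa2, Ttr, Sox7 and Gata6 had slopes of 0.63, 0.63, 0.58 and 0.23. Dab2 (0.10) did not pass over days 0 to 7, and passed over days 1 to 7 at 0.35. The Ttr call was lost without day 0 or day 1 of this arm, at 0.51. In the same arm 9 of 13 epiblast genes, 6 of 9 endothelial genes, 3 of 3 hepatocyte genes and 13 of 29 other endoderm genes rose, and 6 of 8 fibroblast genes fell. The 3 delivered factors were highest on day 2 or 3 and lowest on day 7, though none of their slopes over days 0 to 7 was called, with Esrrb at 2643 CPM on day 2 and 538 on day 7, Sall4 at 2749 on day 3 and 624 on day 7 and Glis1 at 326 on day 3 and 85.0 on day 7. The part of these lineages and levels in the result was not tested.

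In the other arms 2 or 3 of 9 genes rose. Without Glis1, 3 of 9 rose (3.86% of all genes), Sox17 (1.32), Ttr (1.32) and Foxa2 (0.88), and the last 2 calls were lost without day 0 (1.55 and 0.88) or day 7 (0.61 and 0.75) of that arm. Without Esrrb, 2 of 9 rose (8.71% of all genes), Sox17 (1.02) and Sox7 (0.91). Without Sall4, 2 of 9 rose (3.73% of all genes), Foxa2 (0.65) and Sox7 (0.47). Sox7 there lost its call without day 0, 1, 3, 6 or 7 of that arm, at 0.41 to 0.54, and Foxa2 without day 0 (0.58) or day 1 (0.57). None of the 9 fell in these arms, where 4.01%, 10.5% and 5.57% of all genes fell in the same order. Without Esrrb, Gata4 (-0.40) missed the threshold and passed without day 0 or 3 of the arm without Jdp2, and Foxa2 (0.44) and Ttr (0.49) passed without day 3 of the arm without Esrrb. Gata6 (0.20) passed there without day 0 of that arm and Dab2 (-0.28) without day 0 of the arm without Glis1. Without Glis1, Dab2 passed as falling, at -0.43, without day 7 of that arm.

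**Figure D3:**
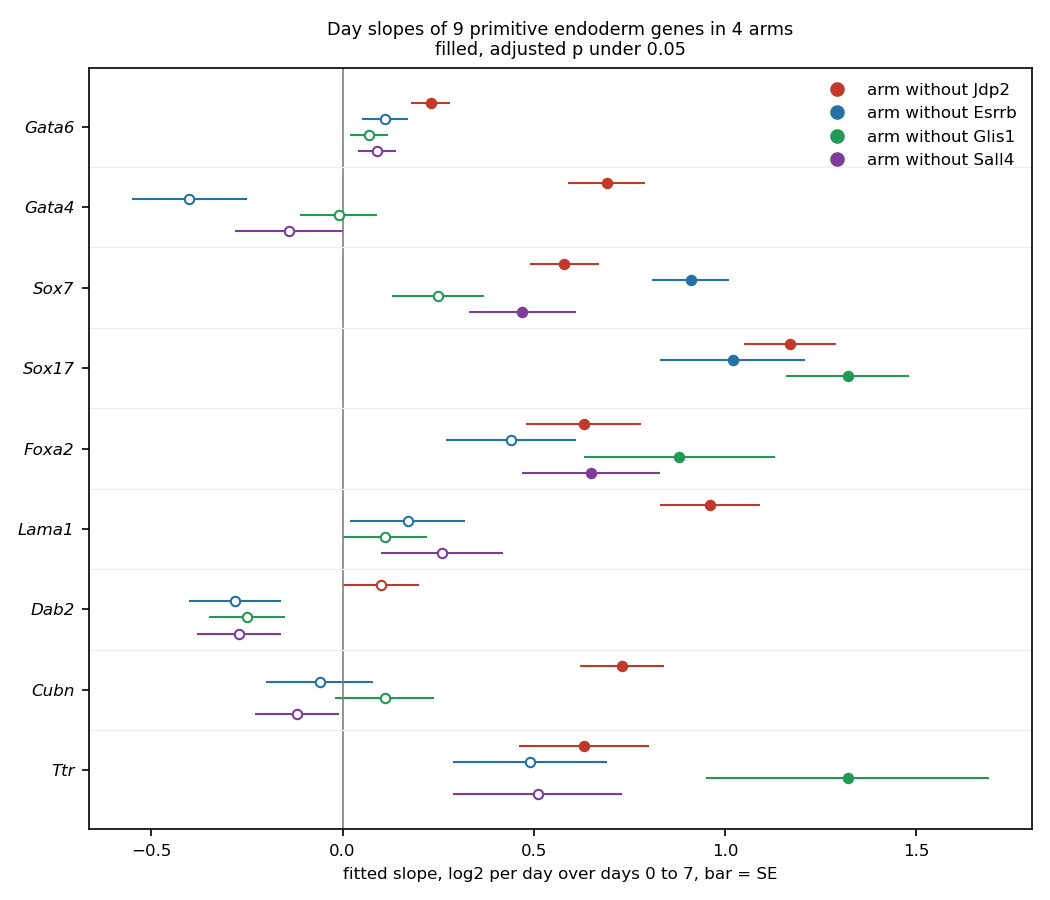
Fitted slope of each gene per arm, in log2 per day over days 0 to 7, with bars for the SE and filled points past an adjusted p under 0.05. Sox17 without Sall4 is left out because it has no count there. Gata4, Lama1 and Cubn have slopes of 0.69, 0.96 and 0.73 without Jdp2 and open points in the other arms, and Sox17 rose in 3 arms.

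The slope without Jdp2 was also set against the mean slope of the other 3 arms in the same fit. That arm was picked because earlier results of these data showed the list high there. The adjusted p-values do not allow for this choice. The slope without Jdp2 was steeper for Gata4 by 0.87 ± 0.12 log2 per day (edgeR adjusted p = 0.0014), for Lama1 by 0.78 ± 0.16 (edgeR adjusted p = 0.032) and for Cubn by 0.75 ± 0.13 (edgeR adjusted p = 0.011). Only 0.105% of all genes, 19 of 18135, were steeper in this sense and 0.0221% less steep. For Sox7 (0.03), Foxa2 (-0.02) and Ttr (-0.15) no difference in slope was called, and Sox17 gave no value because the arm without Sall4 has no count. All 3 calls were lost without day 7 of the arm without Jdp2, at 0.78 for Gata4, 0.80 for Lama1 and 0.61 for Cubn. Lama1 also lost its call without day 1 or 6 of the arm without Esrrb, day 6 of the arm without Glis1, day 1, 2, 3, 5 or 6 of the arm without Jdp2, or day 3, 6 or 7 of the arm without Sall4, at 0.74 to 0.78. Dab2 (0.36) passed without day 0 of the arm without Jdp2, at 0.61.

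Some of 30 further genes of primitive, visceral and parietal endoderm had their highest level in day 0 fibroblasts. Among these were Sparc (3278 TPM without Glis1) and Col4a1 (848), Col4a2 (517) and Nid1 (506 TPM) without Sall4. Others, such as Cited1 and Lrp2, were highest on day 7 without Jdp2. Of the 30 genes, 29 were tested. In the arm without Jdp2, 16 were higher and 2 lower than without Sall4, 17 higher and 2 lower than without Esrrb, and 16 higher and 5 lower than without Glis1. Among all genes tested, 18.2%, 13.5% and 17.9% were higher and 17%, 8.56% and 17.3% lower, in the same order. The median log2 differences of the 29 genes were 0.91, 1.47 and 1.17. Foxq1, a forkhead gene, was higher by 3.78, 3.26 and 4.09 in that order and had a median of 60.7 CPM without Jdp2 against 4.06, 4.56 and 0.874 CPM. Cited1, a transcriptional co-regulator of extraembryonic tissues, was higher by 4.40 than without Sall4, and Cldn6, an early epithelial claudin, by 2.92. Ihh, the hedgehog ligand of visceral endoderm, was higher by 3.66 than without Esrrb, and Lrp2, which encodes megalin and works with Cubn, by 3.42. Apob, the core protein of lipoprotein particles, was higher by 3.73 than without Glis1.

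Not all of the endoderm list moved that way. Apoa2 was lower without Jdp2 than without Sall4 (-2.16) and without Glis1 (-2.59), and Apoe was lower than without Glis1 (-2.85). Thbd was lower than without Sall4 (-1.20), and Apob (-1.47) and Stra6 (-1.35) were lower than without Esrrb. The summed level of the 30 genes ran from 4502 to 11033 TPM without Glis1 and from 2498 to 5341 TPM without Jdp2. Much of the sum without Glis1 was Apoe, which alone reached 9697 TPM on day 5 of that arm. Compared with JEGS on days 2, 4 and 6, 6 of 28 tested were higher without Jdp2 and none lower. Among all genes tested there, 2% were higher without Jdp2 and 0.819% lower. The 6 included Col4a2 (-1.65 for JEGS minus the arm without Jdp2), Cited1 (-1.62) and Col4a1 (-1.60).

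**Figure D4:**
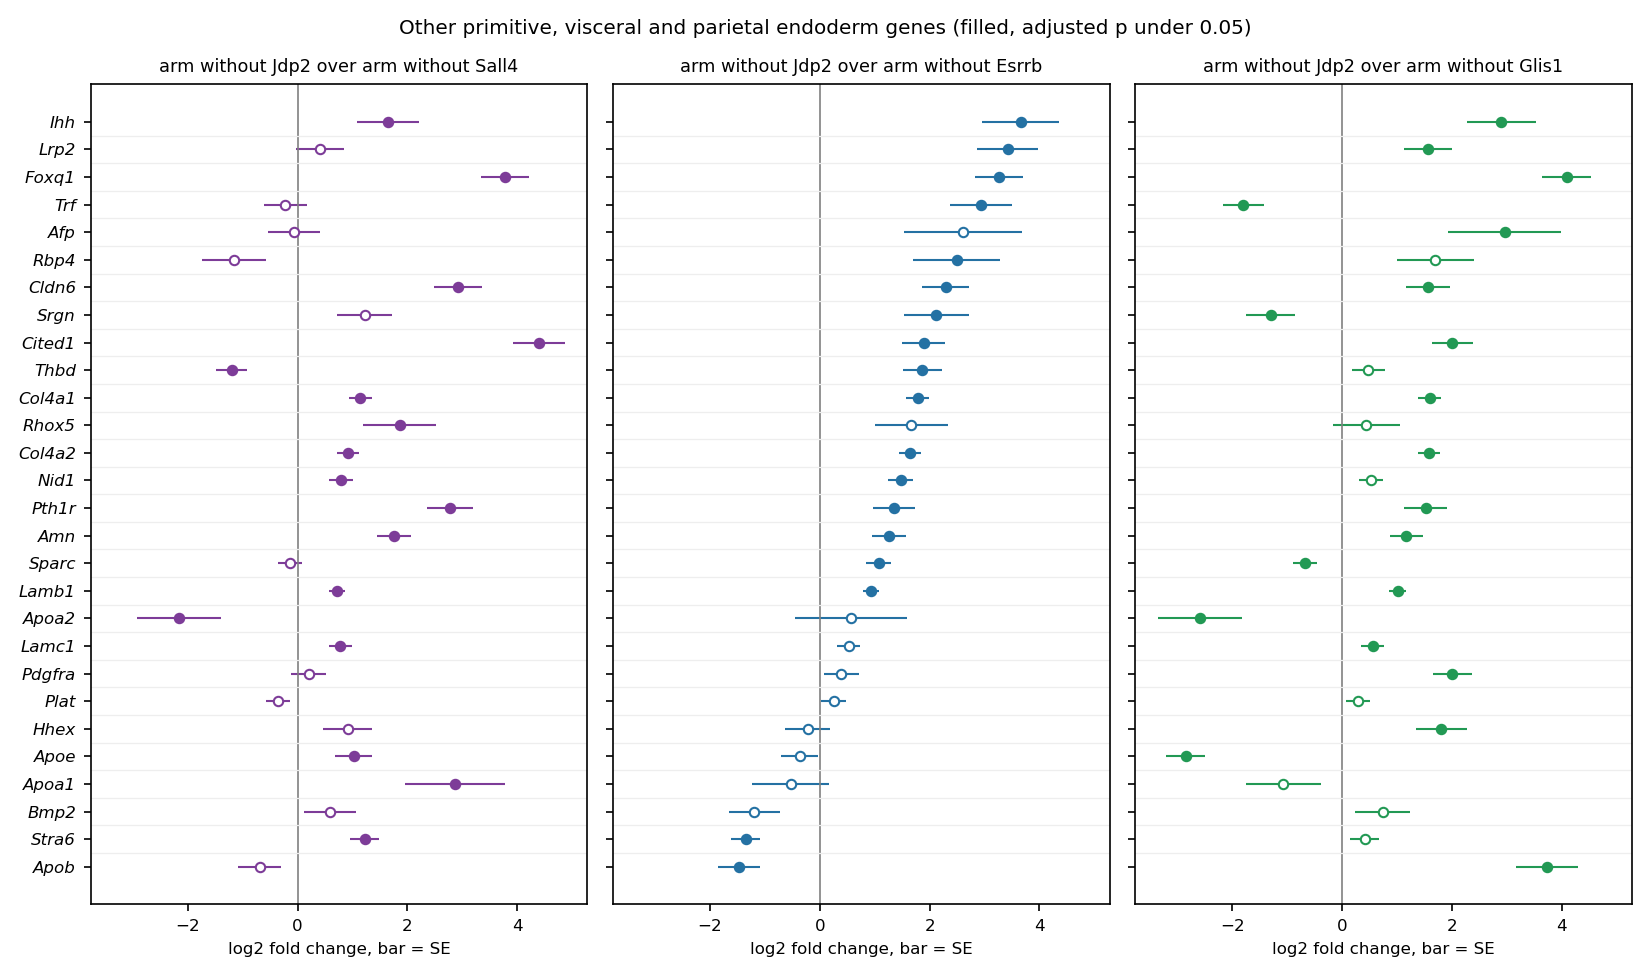
Log2 fold change of 28 other endoderm genes in the arm without Jdp2 over each of the other leave-out arms, with bars for the SE, filled where the adjusted p was under 0.05. Genes are ordered by the middle panel. Foxq1 lies between 3.26 and 4.09 in all 3 panels, and Apoe lies at -2.85 in the right panel.

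Lists closer to single members were examined next, and 6 genes of the first and 2 of the second (Amn and Lrp2) are also among the 30 endoderm genes. Against the arms without Sall4, Esrrb and Glis1, 18.2%, 13.5% and 17.9% of all genes were higher without Jdp2, and 17%, 8.56% and 17.3% lower. Among 12 basement membrane genes, other laminin alpha chains included, 5, 7 and 5 were higher without Jdp2 than without Sall4, Esrrb and Glis1. Col4a1, a chain of type IV collagen, was higher by 1.14, 1.78 and 1.60, and Lamb1, a partner chain of laminin-111, by 0.72, 0.93 and 1.01. Lower were 0, 3 and 2, among them Lama2 (-1.64 against the arm without Esrrb) and Nid2 (-0.99 against the arm without Glis1). Of 7 endocytic partners of Cubn and Dab2, 2, 4 and 4 were higher and 1, 0 and 1 lower. Amn, the membrane anchor of cubilin, was higher by 1.76, 1.26 and 1.17. FGF and MAPK signalling drives the primitive endoderm choice in the blastocyst. Of 13 genes of this signalling, 0, 3 and 3 were higher and 2, 2 and 4 lower, Spry1 lower by -1.23, -0.52 and -1.54. The median log2 differences of the 13 genes were -0.10, 0.04 and 0.07, beside 0.01, 0 and 0 over all genes.

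Genes of other lineages were counted in the same 3 comparisons and the same order, where 18.2%, 13.5% and 17.9% of all genes were higher and 17%, 8.56% and 17.3% lower. Of 9 endothelial genes 7, 2 and 5 were higher without Jdp2 and 0, 1 and 0 lower. Their summed level was 48.1 to 161 TPM without Jdp2, 55.6 to 156 TPM without Esrrb, 17.9 to 45.2 TPM without Glis1 and 15.5 to 61.5 TPM without Sall4. Cdh5, which encodes VE-cadherin, ended at 72.3 CPM without Jdp2 and 48.2 CPM without Esrrb, the arms where Sox7 was highest. Of 13 tested epiblast and pluripotency genes 11, 7 and 9 were higher and 1, 1 and 1 lower, Pou5f1 reaching 75.6 CPM on day 7 without Jdp2 and 372 CPM on day 6 in JEGS. Of 9 hepatocyte genes only Fga, Fgb and Fgg were abundant enough to test, with 2, 3 and 3 higher and none lower, while Alb had 3 counts in the series and Serpina1a none. Of 8 fibroblast genes 0, 0 and 1 were higher and 5 lower in each comparison. The cardiac list had 0, 1 and 2 of 8 genes higher and 1, 0 and 2 lower, and Nkx2-5 had 1 count in the series. The macrophage list had none of 8 higher and 4, 0 and 3 lower. Kidney tubule markers gave 1 tested gene, which was not called, with Slc34a1 at 0 in every library. The choroid plexus list had 1, 2 and 1 of 4 higher and 0, 0 and 1 lower, and the trophoblast list 1, 1 and 2 of 5 higher and 1, 0 and 1 lower, with Tpbpa at 0. The definitive endoderm list had 2, 1 and 0 of 7 higher and 2, 4 and 2 lower. The part of any of these lineages in the members' levels was not tested.

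Levels of different members can be set side by side only per transcript length, in TPM. On day 7 without Jdp2 the order was Lama1 (106 TPM), Sox17 (89.6), Dab2 (60.1), Gata4 (36.5), Sox7 (20.2), Ttr (19.6), Foxa2 (19.5), Gata6 (17.3), Cubn (4.68) and Hnf4a (2.22). With 1 library there is no spread for this order, and Sox7, Ttr, Foxa2 and Gata6 lie close together. On the same day Gata6 led without Sall4 (13.4 TPM), Sox7 without Esrrb (24.1 TPM) and Dab2 without Glis1 (22.6 TPM), just ahead of Sox17 (21.6 TPM). The TPM of some members depends on which isoforms were assigned, since between libraries with 20 or more counts of the gene the effective length varied 3.0-fold for Dab2 and 2.68-fold for Lama1, against 1.04-fold for Gata4 and 1.0-fold for Sox7. Over all libraries with a count it varied 17.8-fold for Lama1. CPM was therefore used for the courses and tests. Sox17 shares 804 exon bases with an opposite-strand transcript that had no count, and Gata6, Cubn and Dab2 share 93, 368 and 211 with ones of 28, 12 and 0 counts.

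The genes most like each member across the 35 libraries were sought among 12822 genes, by Pearson's r of log2(TPM + 1). The members themselves, the delivered factors and predicted or unnamed genes were left out of this search. Likeness between members was therefore not examined. These values are descriptions over libraries that share arms and days. Sox17 was followed most closely by Aqp8 (r = 0.92) and Clic6 (0.91), and Ttr by Afap1l1 (0.90) and Bend4 (0.87). Cubn was closest to Hbb-bh1 (0.89), an embryonic globin of yolk sac blood cells, and Igfbp1 (0.82), and the same pair came first for Hnf4a (0.77 and 0.81). Hnf4a had no count in 31 of the 35 libraries, and its effective length varied 9.97-fold over libraries with a count. Its r values therefore rest on few counts. Sox7 was closest to Cdh5 (0.88) and Scube2 (0.87). Foxa2 was closest to Pcsk1n (0.86) and Podxl (0.85), Lama1 to Epcam (0.82) and Slc2a3 (0.80), and Dab2 to Bex3 (0.81) and Esyt1 (0.78). The GATA factors had the weakest matches, Gata6 to Fabp3 (0.77) and Prkx (0.73) and Gata4 to Actc1 (0.73) and Dpp4 (0.73).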

How the data were processed

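Arms and days came from sample titles. Per the submitters' processing notes, bcl2fastq, Bowtie2 and RSEM were used with mm10, and versions and annotation are not given in the sources used here. The authors deposited 1 RSEM table per library with expected counts, which are estimated reads and not normalized, and with TPM. FPKM in the deposited tables was not used. Of 54752 identifiers, 54723 matched a symbol.

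After rounding, expected counts went into edgeR 4.0.16, run in R 4.3.3 (TMM scaling, a minimum of 1 CPM in 3 libraries, quasi-likelihood F tests, two-sided, Benjamini-Hochberg over all genes tested, threshold 0.05). In all, 15 contrasts were made: 6 pairs of leave-out arms and 4 of JEGS with day as a factor, 4 arm slopes and 1 slope difference. CPM is TMM scaled. Each SE given with an edgeR value is approximate. It is the absolute log2 value divided by the square root of the F statistic, not an SE estimated by the model. Against an arm with no count, folds are bounds from a floor of 3 counts over the arm, which cover counting error only. Alternatives used DESeq2 1.42.0, limma 3.58.1 on log2(TPM + 1) and log2(TPM + 0.1), thinned counts, other filters, days and day terms, and each library left out. The scripts were tested on simulated data.

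All 10 members are named, with up to 4 genes of largest change past the threshold per other list and contrast. Genes beyond that (Alb, Serpina1a, Nkx2-5, Slc34a1, Tpbpa, Pou5f1, and members of lists named across contrasts) were chosen after their values were seen. A gene of the other endoderm list is counted but not reported here. Members, lists and the arm of the slope difference were chosen with earlier results of these data known. Sequences are RefSeq's, coordinates GRCm38.p6, the mm10 build. No promoter window was available for Gata4, Sox7, Sox17 and Lama1. Gata6 and Ttr were left out of the promoter search, so its results do not cover them.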

Additional observations from a re-analysis of the deposited data

Results flagged for a closer look

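In 8 of 37 courses of a member over the 8 days of an arm, the highest day stood apart from the other 7 by Dixon's criterion, which chance alone meets in about 1 in 20 groups of replicates. The days are a time course and not replicates, so a steep first or last day meets it as well. Day 0 stood apart for Dab2 in 3 arms, at 78.2 CPM without Esrrb, 141 CPM without Glis1 and 99.9 CPM without Sall4, with the next highest days at 27.8, 36.1 and 26.5 CPM. Day 7 stood apart without Jdp2 for Cubn (34.5 CPM, next 15.6 CPM) and Hnf4a (6.14 CPM, next 2.28 CPM). Day 7 also stood apart without Glis1 for Foxa2 (5.10 CPM, next 2.29 CPM), Ttr (2.55 CPM, next 0.381 CPM) and Hnf4a (0.850 CPM, next 0.381 CPM), where the last value is 2 counts. The slope without Jdp2 differed from the mean slope of the other 3 arms for Gata4 (0.87 log2 per day), Lama1 (0.78) and Cubn (0.75), by a test of the difference itself in edgeR. The arm without Jdp2 was picked for this test with earlier results of these data known.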

How the results depend on the processing

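No value of a called gene changed sign under any alternative. Of 4728 gene values recomputed, 4510 stayed as in the main fit, 154 lost a call, 62 gained one and 2 moved. The 4510 include values that were not called in the main fit and stayed uncalled, so they do not count calls kept. They also include 8 of 10 ratios of means, which carry no call. The moved values were the ratio of the mean without Jdp2 to the mean of the other arms in CPM instead of TPM, 2.72 for Sox7 and 8.56 for Sox17. The 7 genes higher without Jdp2 than without Sall4 were 7 on leaving out any library. Cubn did not reach the TPM minimum used with limma and was not tested there, which lowers each limma count that held it. Under limma with either pseudocount, 3 genes in place of 5 were higher without Jdp2 than without Esrrb, Gata4 having lost its call and Cubn being untested, and 1 in place of 2 lower without Esrrb than without Glis1. For JEGS, each arm named by the factor it lacks, limma gave 0 higher and 0 lower in place of 1 and 1 against Esrrb, 0 lower in place of 2 against Jdp2 and 1 higher in place of 3 against Sall4. Limma gave 1 and 2 of 4 higher without Esrrb than without Sall4 (pseudocounts 1 and 0.1), 1 of 2 higher in JEGS than without Glis1 (0.1), rising counts of 4, 1 and 1 without Esrrb, Glis1 and Sall4, and 0 of 3 slope differences (0.1). DESeq2 gave 1 lower without Glis1 than without Sall4, 0 lower in JEGS than without Esrrb, 1 lower than without Jdp2, and 4 rising and 1 falling without Esrrb. With no filter, lower without Esrrb than without Sall4 became 2, lower without Glis1 than without Sall4 1, higher in JEGS than without Esrrb 2, and rising without Sall4 1. With no day term, JEGS had 0 lower against Esrrb, 1 higher against Glis1, 0 lower against Jdp2 and 1 higher against Sall4. Thinned to 1200000 counts, JEGS had 1 higher against Glis1 and 1 lower against Jdp2, and rising genes were 1 without Glis1 and 0 without Sall4. With log2(day + 1), 4 rose and 1 fell without Esrrb, 1 fell without Glis1, 1 rose and 1 fell without Sall4 and 1 slope difference was called. Days 1 to 7 gave 1 falling without Esrrb and 0 rising without Sall4, and days 3 to 7 gave 1 lower without Glis1 than without Sall4. Smaller changes in a count are not all listed here.

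On leaving out 1 library, the count higher without Jdp2 than without Esrrb was 3 to 6, with 3 on leaving out day 6 or day 7 of the arm without Jdp2. Other ranges were 1 to 2 lower without Esrrb than without Sall4, 0 to 2 lower without Glis1 than without Sall4 and 1 to 3 lower without Esrrb than without Glis1. JEGS ranged over 0 to 2 higher and 0 to 1 lower against Esrrb, 1 to 2 higher against Glis1, 0 to 2 lower against Jdp2 and 1 to 3 higher against Sall4. Rising genes ranged over 2 to 4 (0 to 1 falling) without Esrrb, 1 to 3 (0 to 1 falling) without Glis1 and 0 to 2 without Sall4, and slope differences over 0 to 4. The cause of these changes was not tested. Arms were paired by day through the day term of the pairwise fits, and the fits without it are given above and beside the results. Beyond that, no paired analysis was possible because the labels share no replicate numbers between arms. Depth limits Hnf4a, Ttr and Cubn, which had few counts in most libraries.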
